A study of Mus musculus with 9 samples.

Results

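The response of mouse embryonic stem cells (ESCs) to siRNA against Dppa4 was described across all genes, from 6 of the 9 RNA-seq libraries of the study. The sample labels assigned 3 of these libraries to Dppa4 siRNA and 3 to control siRNA, with replicate letters A, B, and C in each group. All libraries came from the ESC line E14 (129/Ola background), grown without feeder cells in serum and LIF, the cytokine that maintains pluripotency. The paper describes its knockdowns as made in ESCs that carry the fluorescent reporters MERVL::tdTomato and Zscan4c::eGFP. Cells were transfected with siRNA at the start and once more midway, and polyadenylated RNA was collected at 96 h (4 d). The 3 libraries of Dppa2 siRNA, handled in the same way, entered the fit and served to show where the response to Dppa4 siRNA differed. The experiment is a partial and transient knockdown in a single cell line. The study describes replicates of its siRNA experiments as biological, but the labels do not say whether these libraries came from separate cultures, so p-values measure only the spread between them, part of which may be technical.

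Dppa2 and Dppa4 are small nuclear proteins with a SAP domain, which bind chromatin together and are encoded next to each other on chromosome 16. They are expressed in oocytes, early embryos, and ESCs. A rare and transient fraction of cells in an ESC culture resembles the 2-cell embryo (2C-like cells) and transcribes gene families that are otherwise active when the zygotic genome is first switched on. Germline genes, by contrast, are expressed in ESCs at low level in spite of repressors that keep them silent in most somatic tissues.

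Values below are the normalized log2 expression that the authors deposited, and a difference is the Dppa4 siRNA mean minus the control siRNA mean on that scale, with its standard error (SE). These values are not divided by transcript length, so levels are compared within a gene and not between genes. The control libraries had an estimated depth of 18300000 to 40200000 reads (median 23900000) and the Dppa4 siRNA libraries of 19400000 to 26400000 reads (median 25500000), inferred from the steps between low values. The Dppa4 siRNA libraries were more alike (pairwise r across genes 0.987 to 0.992) than the control libraries were (0.954 to 0.985). Control libraries also differed in how long transcripts (above 4832 bases) stood against short ones (below 2193 bases), with a long minus short median, relative to the gene means, of 0.60 in control A, 0.02 in control B, and -0.40 in control C. The same measure was -0.27, -0.11, and 0.14 in the Dppa4 siRNA libraries. Lowered genes had a median transcript length of 3012 bases and raised genes of 3042 bases, beside 3210 bases over the tested genes.

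The targeted transcript fell to about the same level in every Dppa4 siRNA library. Dppa4 (ENSMUSG00000058550, chr16:48283735-48294292, GRCm38) stood at 7.02, 7.11, and 7.06 in control A, B, and C and at 6.16, 6.14, and 6.09 after Dppa4 siRNA. The groups did not overlap, and the reduction was 46.5% to 48.9% of the control level per library (47.6% ± 1.21, SD, n = 3). The difference was -0.93 (SE 0.08, limma adjusted p = 0.000281). Of the 50-base stretches of its transcript, 36.4% also occur in another annotated transcript, so part of its reads may be shared with copies. Dppa2 stood at 7.26, 7.16, and 6.94 in the control libraries and at 7.01, 7.17, and 7.03 after Dppa4 siRNA. The groups overlapped (difference -0.05, SE 0.14, limma adjusted p = 0.921). For its Dppa4 knockdown the paper reported a larger fall of Dppa4 mRNA by qRT-PCR, and of Dppa4 protein by Western blotting. It also reported that Dppa2 protein fell after Dppa4 siRNA although Dppa2 mRNA did not. The values here are of RNA only and do not show how much of either protein was left.

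**Figure D1:**
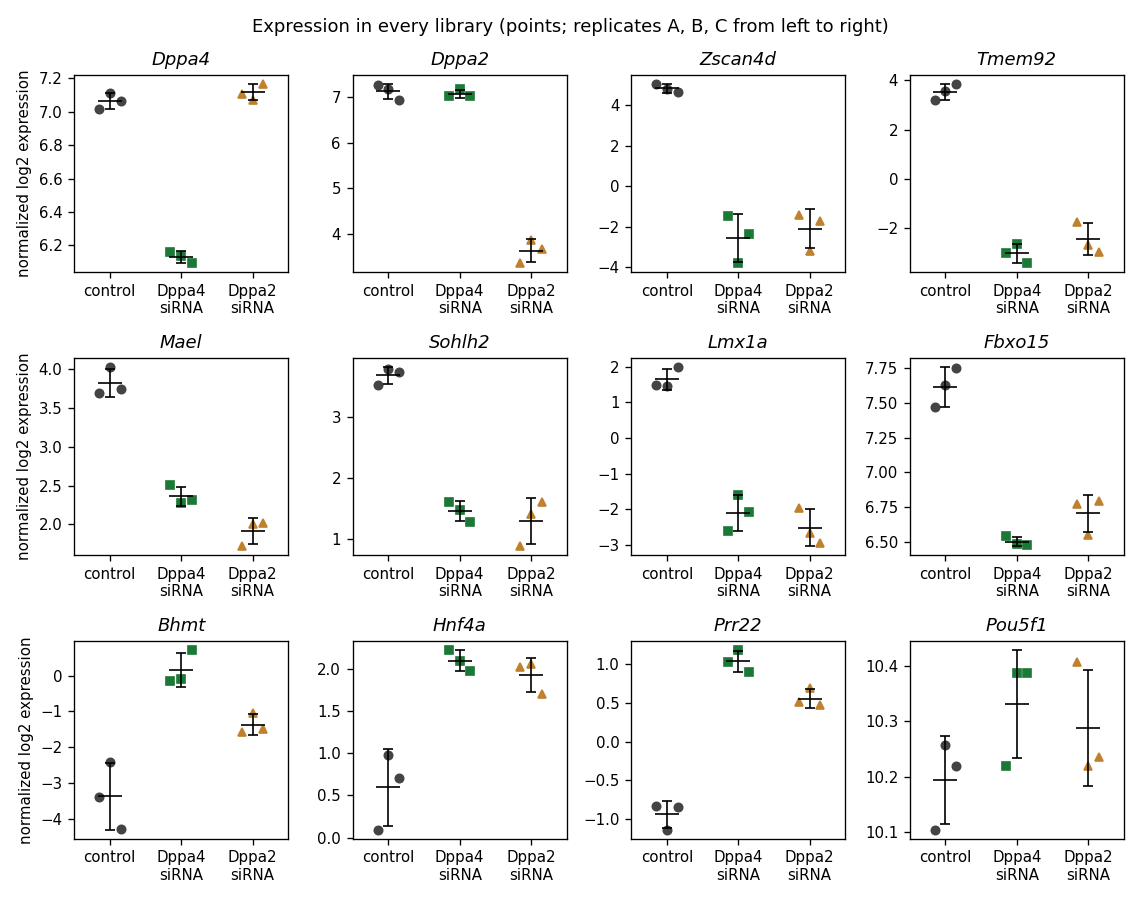
Normalized log2 expression (vertical axis, scaled separately in each panel) of 12 genes in the 3 libraries of each siRNA; points are libraries A, B, and C from left to right, and bars give the mean and SD. Dppa4 lay at 6.09 to 6.16 after its siRNA against 7.02 to 7.11 in control cells, whereas Dppa2 overlapped between these groups; Bhmt, Hnf4a, and Prr22 lay above the control libraries, and Pou5f1 overlapped.

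Most genes that changed went down, and most of them went down by more than the Dppa4 transcript did. A gene was called high-confidence when it passed limma (adjusted p below 0.05 over all 14601 tested genes) and an intensity difference filter, which asks whether its difference is large for its expression level. By both criteria 231 genes fell (1.58% of the tested genes) and 61 rose (0.418%), so that 79.1% of the 292 called genes were lowered. Over all tested genes the median difference was 0.03 and 44.6% lay below zero. By limma alone 502 genes were called (3.44%), and 2634 had an unadjusted p below 0.05. Of the 230 lowered genes other than Dppa4, 178 fell by more than Dppa4 did and 52 by less. This count depends in part on the intensity filter, which sets the size needed for a call by expression level. Only 1 lowered gene had a mean control level above that of Dppa4, and lowered genes with a control value above 6 had a median of -0.57.  In each of the 292 called genes all Dppa4 siRNA libraries lay beyond all control libraries. The genes were called from these same libraries, so this separation follows largely from the call and adds no support to it.

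The lowered genes covered a wide range of sizes, with a median of -1.97. There were 69 genes at or below -4, 46 between -4 and -2, 56 between -2 and -1, and 60 above -1. The 69 strongest decreases differed in kind from the rest. Of them 38 carry predicted or clone names and 27 belong to the list of 2-cell genes, and 37 of the 62 with a known transcript share over 20% of their 50-base stretches with another gene. Among the 60 mildest decreases 1 gene carries such a name and 1 is a 2-cell gene. In the Dppa4 siRNA libraries 64 lowered genes had at most 3 inferred reads in all, and 32 had none. Raised genes moved less: their median was 0.80, 17 rose by more than 1, and 2 by more than 2. The number of raised genes depended on single libraries. It was 16, 9, and 29 without Dppa4 siRNA library A, B, or C, 32 without control A, and 36 without Dppa2 siRNA library C. The number of lowered genes ranged from 147 to 234 when single libraries were left out, with 147 without Dppa4 siRNA library B.

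**Figure D2:**
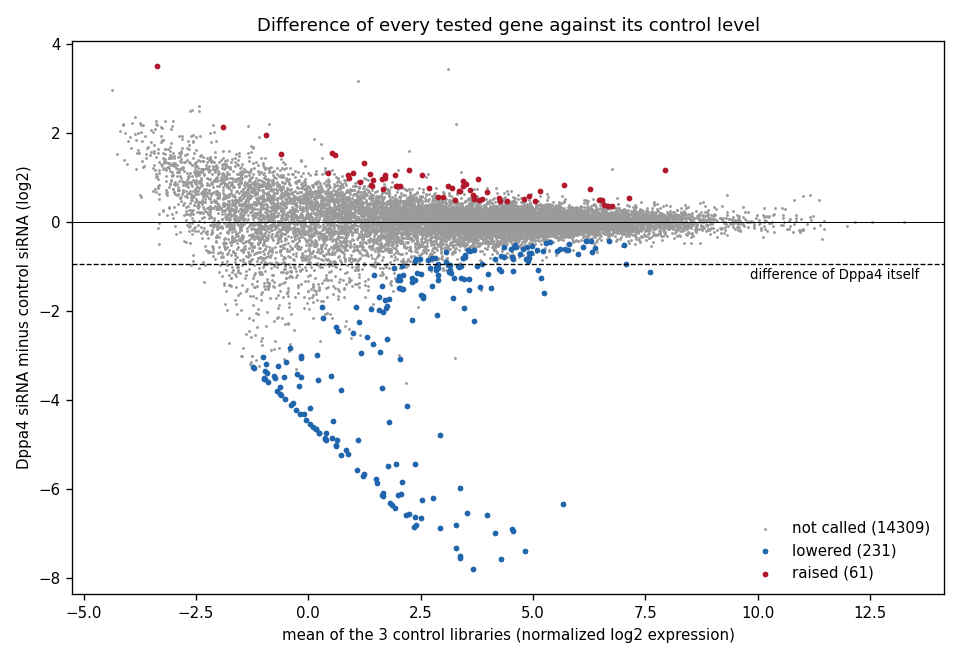
Difference between Dppa4 and control siRNA (log2, vertical) against the mean of the 3 control libraries (normalized log2 expression, horizontal) for the 14601 tested genes, with 231 lowered genes in blue and 61 raised genes in red. The dashed line marks the difference of Dppa4 itself, -0.93, and 178 of the other 230 lowered genes lie below it; the diagonal lower edge is formed by genes with no or few reads left after Dppa4 siRNA.

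The share of genes called varied with the control value, which reflects read support (it is not per length). Below a control value of 0 on the log2 scale, 32 of 2338 tested genes were lowered (1.37%), with a median of -3.50. From 0 to 2, 63 of 2247 were lowered (2.80%), with a median of -4.48. From 2 to 4 it was 84 of 3305 (2.54%), with a median of -1.29, and from 4 to 6 it was 43 of 4298 (1.0%), with a median of -0.76. Above 6 only 9 of 2413 genes were lowered (0.373%) and 8 were raised.

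Transcripts of the 2-cell stage were among the deepest decreases, as 27 of the 69 genes at or below -4. Of 33 tested genes of a list of 2-cell transcripts, 31 fell and none rose, where 1.58% of all tested genes fell. Their median difference was -5.84, or -5.43 with genes at 0 reads set to the 3-read floor, beside 0.03 over all tested genes. The mean over the list was 1.90 to 2.12 in the control libraries and -3.41 to -3.31 in the Dppa4 siRNA libraries, which did not overlap. After Dppa2 siRNA it was -3.55 to -3.29. Members low after both siRNAs passed the test limit of -2 only through their control libraries, so for them little but a fall could be seen. The list was also written with earlier results of these data known, so its share of lowered genes is a description only. When single libraries were left out the list had 29 to 32 called members. In bulk RNA, fewer 2C-like cells and less RNA per cell cannot be told apart.

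Some of these genes have sequences of their own and can be read without doubt about copies. Tmem92, which encodes a transmembrane protein, shares 2.0% of its stretches with other genes and lay at 3.20, 3.55, and 3.84 in the control libraries and at -2.99, -2.63, and -3.40 after Dppa4 siRNA. Read numbers ran from 308 to 655 in control cells and from 2 to 5 after Dppa4 siRNA. The groups were far apart, and the difference was -6.54 (SE 0.37, limma adjusted p = 6.44e-05). Zfp352, a zinc finger gene of the early embryo, had 283 reads over the control libraries and 1 read over the Dppa4 siRNA libraries. This is 0.408% of the control level, with a 95% interval of 0.0103% to 2.29%. Spz1, a basic helix-loop-helix factor named for its expression in spermatogenesis, had between 28 and 59 reads in the control libraries and none after Dppa4 siRNA, and was at least 10.8-fold lower. Ubtfl1, a relative of the ribosomal RNA gene transcription factor UBTF that is needed before implantation, was at least 8.82-fold lower.

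Other members belong to families whose copies share reads. Zscan4d, of the Zscan4 family of telomere-associated zinc finger proteins, lay at 5.05, 4.81, and 4.63 in control cells and at -1.47, -3.80, and -2.38 after Dppa4 siRNA. The Dppa4 siRNA libraries were all low but spread widely, on 2 to 11 reads each (difference -7.38, SE 0.61, limma adjusted p = 0.000281). All 5 tested Zscan4 genes fell, by 4.89 to 7.38 on the log2 scale. The Usp17-like deubiquitinases fell in the same manner, among them Usp17l5 (difference -6.25), Dub3 (-6.19), Dub1a (-6.86), Dub1 (-5.43), and Dub2a (-5.01). Tdpoz3 and Tdpoz4, which encode BTB domain relatives of the ubiquitin ligase adaptor SPOP, had no reads after Dppa4 siRNA and were at least 4.68-fold and 10.2-fold lower. Sp110, a nuclear body protein gene, retained 2 reads against 571 in the control libraries, 0.404% of the control level (95% interval 0.0489% to 1.47%).

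A few members of the list fell far less than the families did. P4ha2, a subunit of the collagen prolyl hydroxylase, lay at 3.42, 3.53, and 3.51 in control cells and at 2.73, 2.76, and 2.73 after Dppa4 siRNA. The groups did not overlap, and the difference of -0.75 (SE 0.11, limma adjusted p = 0.00672) was smaller than that of Dppa4. Pramel6 and Pramel7, leucine-rich repeat proteins of the inner cell mass, fell by 1.43 and 1.93. Arg2, the mitochondrial arginase, was not among these weak members. It fell by 4.78 (SE 0.28, limma adjusted p = 6.44e-05), and its reads went from between 206 and 379 in the control libraries to between 6 and 9.

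Germline genes fell in part, and by less than the 2-cell genes. Of 94 tested genes in 5 lists of germline function, 19 fell (20.2%, beside 1.58% of all tested genes) and 1 rose, with a median difference of -0.36. The share differed between lists. In the list of germ cell copies of metabolic and housekeeping genes, which also holds sperm proteins such as Spesp1, 7 of 12 fell. Decreases numbered 4 of 21 among germ cell regulators and 4 of 23 among piRNA pathway genes. They numbered 3 of 32 among genes of synapsis and recombination and 1 of 6 among Rhox genes. No test was made between these shares, and the lists were written with earlier results of these data known. The count rests on single libraries more than the 2-cell count does: it was 12, 9, and 11 without Dppa4 siRNA library A, B, or C, and 12 without control B.

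Promoters of 3 lowered germline genes are shown beside those of 2 lowered genes of the 2-cell list. The examples were picked because they differ in their CpG dinucleotides, so they do not stand for their lists. The sequences below, 5′ to 3′ on the strand of the gene, are the 250 bases before the start site from the RefSeq table of GRCm38.p6, with every CpG in capitals. Mael (chr1:166238745-166238994, minus strand), Ddx4 (chr13:112652311-112652560, minus strand), and Slc25a31 (chr3:40708621-40708870, plus strand) are the germline genes, and Spz1 (chr13:92576233-92576482, minus strand) and Zfp352 (chr4:90218570-90218819, plus strand) the 2-cell genes.
Mael: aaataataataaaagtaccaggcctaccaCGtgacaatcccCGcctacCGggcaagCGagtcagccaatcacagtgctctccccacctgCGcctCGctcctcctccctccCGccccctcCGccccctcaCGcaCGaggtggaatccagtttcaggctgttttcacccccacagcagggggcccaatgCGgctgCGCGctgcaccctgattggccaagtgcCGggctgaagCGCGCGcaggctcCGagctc
Ddx4: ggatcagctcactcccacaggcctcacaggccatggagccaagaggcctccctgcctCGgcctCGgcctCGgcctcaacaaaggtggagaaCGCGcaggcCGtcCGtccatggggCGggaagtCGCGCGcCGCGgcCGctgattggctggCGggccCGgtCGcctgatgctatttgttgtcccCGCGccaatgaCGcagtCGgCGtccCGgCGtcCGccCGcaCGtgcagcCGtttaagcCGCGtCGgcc
Slc25a31: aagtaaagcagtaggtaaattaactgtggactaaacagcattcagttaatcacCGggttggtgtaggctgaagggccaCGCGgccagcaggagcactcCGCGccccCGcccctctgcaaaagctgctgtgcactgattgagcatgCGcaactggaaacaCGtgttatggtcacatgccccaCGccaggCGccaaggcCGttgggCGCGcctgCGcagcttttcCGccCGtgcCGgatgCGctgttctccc
Spz1: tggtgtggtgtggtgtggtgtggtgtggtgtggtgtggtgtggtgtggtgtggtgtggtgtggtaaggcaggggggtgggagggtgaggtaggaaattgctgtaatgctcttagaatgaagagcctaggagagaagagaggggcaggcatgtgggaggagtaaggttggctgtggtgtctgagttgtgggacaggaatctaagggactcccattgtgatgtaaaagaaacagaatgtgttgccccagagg
Zfp352: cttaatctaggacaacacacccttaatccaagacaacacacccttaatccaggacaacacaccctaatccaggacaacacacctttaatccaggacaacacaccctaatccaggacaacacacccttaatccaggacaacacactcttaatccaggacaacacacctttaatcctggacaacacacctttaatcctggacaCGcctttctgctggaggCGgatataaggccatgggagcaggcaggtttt
The RefSeq start of Slc25a31 lies 16 bases inside the gene as annotated for the deposited table. These stretches hold 18, 31, and 18 CpG dinucleotides in the germline genes, 0 in Spz1, and 2 in Zfp352. Promoters of 300 bases were at hand for 17 of the 19 lowered germline genes. They held 0 to 38 CpG dinucleotides, with a median of 17 beside 7 over all 32851 promoters of the table. The letters CACGTG, which read the same on both strands, occurred in 6 of the 17 (35.3%: Mael, Sohlh1, Slc25a31, Fkbp6, Ddx4, and Mov10l1) and in 7.15% of all promoters. Their first base lay 223 bases before the start in Mael, 29 in Ddx4, and 93 in Slc25a31. The letters TCCCGC, or GCGGGA on the other strand, occurred in 8 of the 17 (47.1%) and in 19.98% of all promoters. Over the tested genes, of which 70.7% had a promoter in the table, the median was 21 CpG dinucleotides, 10.3% held CACGTG, and 37.0% held TCCCGC or GCGGGA. The lowered germline genes thus did not exceed the tested genes in CpG dinucleotides. These are counts of letters, and no test was made on them. For the 2-cell list 17 of 31 lowered genes (54.8%) had a promoter in the table. These held 0 to 26 CpG dinucleotides, with a median of 2, none with CACGTG, and 2 with TCCCGC or GCGGGA. With this coverage a comparison of the 2-cell list is void.

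Among the regulators of germ cells, transcription factors and an RNA-binding protein fell. Sohlh1 and Sohlh2 encode partner basic helix-loop-helix factors that drive oocyte and spermatogonial differentiation. Sohlh1 had between 12 and 27 reads in the control libraries and none after Dppa4 siRNA, and was at least 4.58-fold lower. Sohlh2 fell from 3.52 to 3.78 in the control libraries to 1.28 to 1.61 (difference -2.23, SE 0.20). Dazl, an RNA-binding protein that promotes translation in germ cells, lay at 2.70, 2.13, and 2.13 in control cells and at -0.10, 0.40, and 0.09 after Dppa4 siRNA. The groups did not overlap (difference -2.19, SE 0.25, limma adjusted p = 0.00185). Dmrtc1c2, an X-linked DM domain gene whose stretches all occur in another gene, retained 3 reads against 168 in the control libraries (2.06%, 95% interval 0.421% to 6.13%). Taf7l, the germ cell copy of a TFIID subunit, differed by -2.61 and passed limma (adjusted p = 0.00117) but not the intensity filter. Dmrt1, which maintains spermatogonia, overlapped between the groups (difference 0.15, SE 0.11).

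In the piRNA pathway, which silences transposons in germ cells, factors outside the PIWI proteins fell. Mael, a component of the perinuclear granules, lay at 3.69, 4.03, and 3.75 in control cells and at 2.51, 2.28, and 2.31 after Dppa4 siRNA. It fell by 1.46 (SE 0.14, limma adjusted p = 0.000719). The co-chaperone Fkbp6 fell by 1.35, the VASA helicase Ddx4 by 1.19, and the helicase Mov10l1, which binds piRNA precursors, by 1.03. The Tudor protein gene Tdrd1 had a difference of -1.22 that passed limma (adjusted p = 0.0225) but not the intensity filter. Piwil2 (difference -0.33, SE 0.16) and Tex19.1 (-0.49, SE 0.16), a transposon defense gene with high expression in ESCs, did not pass.

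Genes of meiotic chromosomes split. Syce1, of the central element of the synaptonemal complex, fell by 1.47 (SE 0.21, limma adjusted p = 0.00692), the X-linked crossover factor Tex11 by 0.97, and the helicase Mcm9, which also acts in somatic repair, by 0.64. Hormad2, a chromosome axis protein, lay at 0.48, 0.91, and 1.30 in control cells and at 1.92, 1.99, and 1.79 after Dppa4 siRNA. Its groups did not overlap, and it rose by 1.0 (SE 0.21, limma adjusted p = 0.0373). The median over the 32 tested genes of this list was -0.12.

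The list of germ cell copies of housekeeping genes had the largest share of decreases among the germline lists. It also holds sperm proteins that are not such copies, among them Spesp1. Spesp1, an equatorial protein of the sperm head, fell from 2.07, 2.21, and 2.29 to -1.04, -2.39, and -2.38 (difference -4.13, SE 0.47). Slc25a31, the germ cell ADP/ATP carrier, fell from 0.27, 0.26, and 0.03 to -3.38, -2.63, and -2.38, on 3 to 5 reads per library (difference -2.99, SE 0.57). Cyct, the testis cytochrome c, fell by 1.74, and the tubulin Tuba3a, with 33.9% of its stretches shared, by 1.6. Each of these genes lay lower in all Dppa4 siRNA libraries than in any control library. Milder decreases were those of the acetyltransferase subunit Naa11 (-0.64) and the ribosomal protein copy Rpl10l (-0.60). The poly(A)-binding protein copy Pabpc6 retained 3 reads against 65 (5.33%, 95% interval 1.07% to 16.3%). Rhox1, of the X-linked homeobox cluster expressed in reproductive tissues, had a difference of -3.45 (SE 0.49, limma adjusted p = 0.00655), while Rhox5 overlapped (-0.09, SE 0.20).

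Genes of the oocyte and of maternal transcripts were listed separately. Of 13 tested maternal and oocyte genes none fell, 1 rose (raised genes were 0.418% of all tested), and the median was -0.04. Nlrp4f, an oocyte NLR gene, lay at 1.92, 1.81, and 2.03 in control cells and at 2.80, 2.96, and 3.15 after Dppa4 siRNA. It rose by 1.05 (SE 0.14, limma adjusted p = 0.00473). Ooep, of the subcortical complex of the egg, did not pass (0.20, SE 0.18), and Nlrp14 passed limma alone (-1.79, adjusted p = 0.0308).

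**Figure D3:**
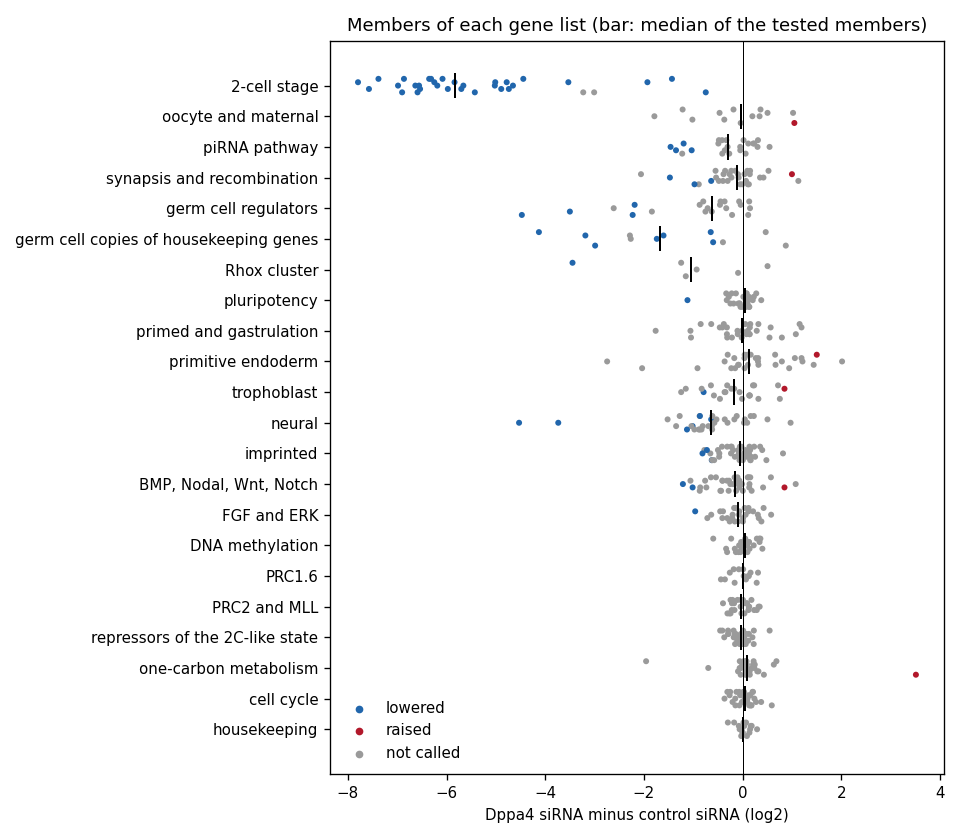
Difference between Dppa4 and control siRNA (log2, horizontal) for each tested member of 22 gene lists, with lowered genes in blue, raised genes in red, genes not called in gray, and the median of each list as a black bar. The 2-cell list is centered on -5.84, the germ cell copies of housekeeping genes on -1.67, and the lists of pluripotency, chromatin, cell cycle, and housekeeping genes between -0.03 and 0.06.

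Among the gene lists other than the 2-cell and germline lists, the neural list held the most decreases. The lists were written with earlier results of these data known, so its share is a description only. Of 33 tested neural genes 6 fell (18.2%, beside 1.58% of all tested genes) and none rose, with a median of -0.64, and 26 had a negative difference. Lmx1a, a homeodomain factor of midbrain dopaminergic neurons, lay at 1.48, 1.45, and 1.99 in control cells and at -2.61, -1.61, and -2.07 after Dppa4 siRNA. The groups did not overlap (difference -3.74, SE 0.37, limma adjusted p = 0.000719). Dcc, the netrin receptor of growing axons, had between 22 and 73 reads in the control libraries and none after Dppa4 siRNA, and was at least 9.36-fold lower. Sox3, an X-linked SoxB1 factor of neural progenitors, fell by 1.13, and the Notch ligand Dll1 by 1.01. The neurofilament gene Nefh fell by 0.86 (SE 0.10) and the kinesin Kif5c by 0.64. Among neural genes of high level, Stmn2 (0.17, SE 0.10) and Tubb3 (difference -0.30) did not pass. Pax8, of the same list, was higher after Dppa4 siRNA (0.97) and passed limma (adjusted p = 0.0158) but not the intensity filter. Without Dppa4 siRNA library A or B, 3 neural genes were called.

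Few signaling, adhesion, and imprinted genes were called, although some lists of signaling genes lay lower on average. The mean log2 level of the BMP, Nodal, Wnt, and Notch list was 3.35 to 3.45 in control cells and 3.19 to 3.22 after Dppa4 siRNA, with 26 of 37 genes below zero and a median of -0.16. The mean of the FGF and ERK list was 3.68 to 3.82 and 3.61 to 3.65, with 17 of 29 genes below zero. Sums on the linear scale overlapped in both lists (1137 to 1192 against 1186 to 1232, and 1048 to 1290 against 1064 to 1164). Fgf1, an FGF ligand, fell by 0.96 (SE 0.14) as the only called gene of 29 in the FGF and ERK list. This is 3.45% of the list, beside 1.58% of all tested genes, and 1 gene says little about the list. Ltbp1, which anchors latent TGF-β, fell from 2.12, 1.90, and 2.05 to 0.92, 0.90, and 0.63. Bmp4 rose from 3.60, 3.70, and 3.26 to 4.35, 4.48, and 4.27 (difference 0.85, SE 0.14, limma adjusted p = 0.0128). Cdh3, or P-cadherin, fell by 0.79 and endoglin (Eng), a TGF-β coreceptor, by 0.72. Among 44 tested imprinted genes 3 fell (6.82%, beside 1.58% of all tested genes), namely Ndn (-0.81), which encodes necdin, the growth inhibitor Grb10 (-0.72), and the IGF2 scavenger receptor Igf2r (-0.62). The p53 list had a mean of 4.77 to 4.88 in control cells and 4.52 to 4.67 after Dppa4 siRNA, with 25 of 33 genes below zero. Of these 33 genes 2 fell (6.06%), the BH3-only gene Pmaip1 (-0.76) and Ddit4l (-1.27).

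Several of the strongest decreases were of genes that share no stretches with another gene and are not on these lists. Cacna1s, the skeletal muscle calcium channel, lay at 1.98, 1.58, and 1.73 in control cells and at -3.38, -3.80, and -3.97 after Dppa4 siRNA (difference -5.48, SE 0.32, limma adjusted p = 6.44e-05). Inpp4b, a phosphoinositide phosphatase, and Abcb5, an ABC transporter, had no reads left and were at least 12.01-fold and 11.7-fold lower. Mecom, a zinc finger regulator of blood stem cells, differed by -4.48 (SE 0.69), on 1 to 8 reads per Dppa4 siRNA library. These 4 genes were chosen after their values were seen.

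The raised genes had no shared function that the lists could show, and no list had more than 2 raised members. Bhmt, which remethylates homocysteine from betaine, lay at -3.39, -2.42, and -4.28 in control cells, on 1 to 13 reads per library, and at -0.15, -0.10, and 0.71 after Dppa4 siRNA, on 27 to 38 reads. The groups did not overlap, and the difference was 3.51 (SE 0.48, limma adjusted p = 0.00539). It was the only called gene of 32 in one-carbon metabolism (3.13% raised, beside 0.418% of all tested genes), and 1 gene says little about the list. Gcnt3, a glycosyltransferase of mucin-type glycans, lay at -2.43, -1.80, and -1.45 in control cells and at -0.05, 0.55, and 0.20 after Dppa4 siRNA (difference 2.13, SE 0.31). Prr22, a proline-rich protein gene, rose from -0.83, -1.13, and -0.84 to 1.02, 1.17, and 0.90, with little spread in either group (difference 1.97, SE 0.18, limma adjusted p = 0.000494).

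Other raised genes encode transcription factors and proteins of adhesion and the cytoskeleton. The nuclear receptor Hnf4a, a regulator of visceral endoderm and liver, lay at 0.09, 0.98, and 0.71 in control cells and at 2.22, 2.10, and 1.98 after Dppa4 siRNA (difference 1.51, SE 0.23, limma adjusted p = 0.00859). The homeodomain gene Cux2 rose by 1.10 and the calcineurin-dependent factor Nfatc2 by 0.99. Aire, the factor that permits expression of tissue antigens in the thymus, rose from 5.78, 5.69, and 5.61 to 6.53, 6.60, and 6.43 (difference 0.83, SE 0.12, limma adjusted p = 0.00693). Aire overlaps Dnmt3l on the opposite strand (reads were quantitated by strand), and Dnmt3l, a cofactor of de novo DNA methylation, differed by 0.36 (SE 0.10, limma adjusted p = 0.104). Cdc42ep1, an effector of the GTPase CDC42, rose by 1.32 (SE 0.13), and the integrin Itgam, a marker of myeloid cells, by 1.54. The ribosomal protein gene Rpl23a rose by 1.18, but 74.1% of its stretches occur in other transcripts, so its reads cannot be assigned with certainty. Only 5 raised genes (Bhmt, Hnf4a, Aire, Nfatc2, and 2810417H13Rik) were called in each of the 16 alternative fits that tested them, beside 81 lowered genes.

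Genes that define the pluripotent state did not move as a group. Of 30 tested pluripotency genes, 1 fell (3.33%, beside 1.58% of all tested genes), none rose, and the median was 0.06. Pou5f1 lay at 10.10, 10.26, and 10.22 in control cells and at 10.22, 10.39, and 10.39 after Dppa4 siRNA, with overlap (difference 0.14, SE 0.09). Nanog (-0.28, SE 0.19), Sox2 (-0.09, SE 0.26), and Esrrb (0.10, SE 0.16) overlapped as well. Fbxo15, an F-box gene known as a target of Pou5f1 and Sox2, was the exception: it lay at 7.47, 7.63, and 7.75 in control cells and at 6.54, 6.49, and 6.47 after Dppa4 siRNA (difference -1.12, SE 0.11, limma adjusted p = 0.000544). Its reads numbered between 5517 and 11092 in control cells and between 2417 and 3315 after Dppa4 siRNA. Dppa5a (0.07, SE 0.17), an RNA-binding protein gene that shares the naming series but not the SAP domain, did not pass, and Dppa3 differed by -0.91 (SE 0.35, limma adjusted p = 0.214), with control libraries spread from 3.55 to 4.90.

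Lists of regulators of the 2C-like state and of chromatin held no called gene, where 2% of all tested genes were called in either direction. This was so for 26 genes of DNA methylation, 14 of the PRC1.6 complex that represses germline genes, 27 of PRC2 and MLL complexes, 32 chromatin repressors of the 2C-like state, and 36 cell cycle genes. Their medians lay between -0.03 and 0.05. At a share of 2%, lists of this size would hold at most a few called genes, so the lack of calls says little about the regulators. At an unadjusted p below 0.05 the lists held 4, 2, 4, 1, and 2 genes. Trim28, a corepressor that silences endogenous retroviruses, lay at 11.23, 11.28, and 11.19 in control cells and at 11.28, 11.35, and 11.46 after Dppa4 siRNA (0.13, SE 0.09). The stress list had 1 called gene of 27, the heme oxygenase Hmox1 (0.38, SE 0.08), and the interferon list 1 of 30, Xaf1 (0.94, SE 0.17). Both rose, as did 0.418% of all tested genes.

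Markers of other cell types were checked for shifts that move with the siRNA. Primitive endoderm genes had 1 raised gene of 30, Hnf4a, and a median of 0.14 (of all tested genes 0.418% were raised and 1.58% lowered). In this list 10 genes had a negative difference, the lowest -2.74. The endoderm factors Gata6 (1.44, adjusted p = 0.0132) and Sox17 (1.2, adjusted p = 0.0348) passed limma but not the intensity filter, and Gata4 differed by 1.22 and Sox7 by 2.02 without passing. Genes of the basement membrane that this cell type secretes did not pass, for example Col4a1 (0.04, SE 0.19). The mean log2 level of this list was 2.10 to 2.43 in the control libraries and 2.48 to 2.51 in the Dppa4 siRNA libraries, so the groups did not overlap, but sums on the linear scale did (964 to 1339 and 1189 to 1221). Fibroblast and smooth muscle markers had 1 raised gene of 17, Pdgfrb (0.90), although 14 had a negative difference and the median was -0.38. Vim (-0.11) and Fn1 (-0.03) did not pass. Trophoblast and blood or endothelial lists each had 1 gene in either direction, of 23 tested in each. The 12 mitochondrially encoded mRNAs held no called gene, and their mean level was 5.88, 5.33, and 4.38 in control A, B, and C and 5.52, 5.93, and 5.45 after Dppa4 siRNA. The low value belonged to control C. Without this library 208 genes were lowered and 42 raised, with 29 lowered in the 2-cell list, 15 in the germline lists, and 6 in the neural list.

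Lowered genes were spread over all autosomes and X, and part of them lay in runs. A run was taken as at least 3 called genes with each start within 500 kb of the next. There were 12 runs of lowered genes with 50 members (21.6% of the lowered genes) and no run of raised genes. Of the 50 members 39 were among the 69 genes at or below -4. Their median difference was -5.80 (-5.08 with the 3-read floor), while that of the 181 lowered genes outside runs was -1.47. With neighbors within 200 kb there were 9 runs with 33 genes, and within 1000 kb 13 runs with 54 genes.

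**Figure D4:**
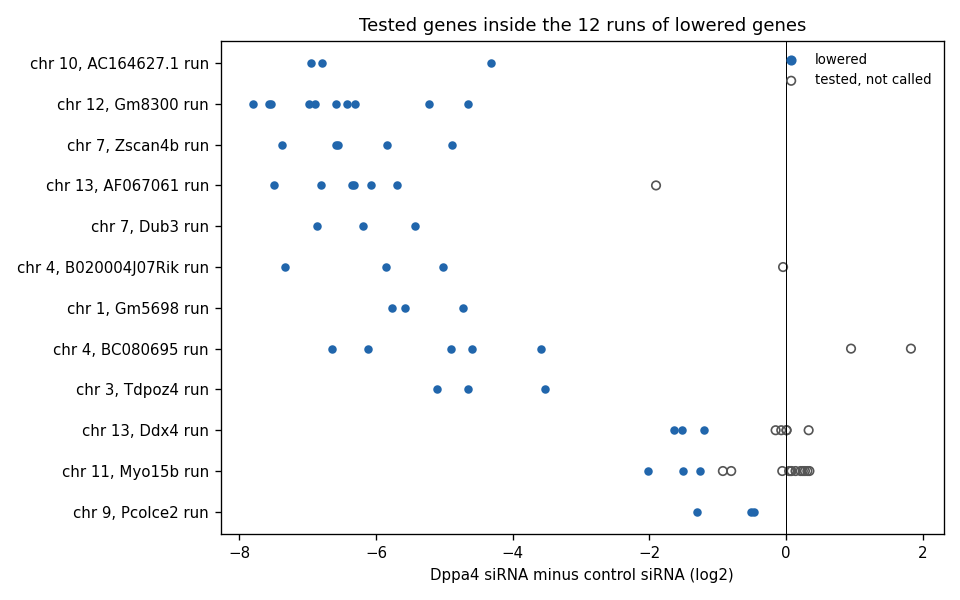
Difference between Dppa4 and control siRNA (log2, horizontal) for every tested gene inside the 12 runs of lowered genes (rows, each named by chromosome and a member), with lowered genes as filled circles and genes that were not called as open circles. In 9 runs the lowered genes lie at -3.53 or below, and in the runs of Ddx4, Myo15b, and Pcolce2 they lie between -2.02 and -0.46, with uncalled genes at -0.15 to 0.33 in the Ddx4 run and -0.92 to 0.34 in the Myo15b run.

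In 9 of the runs, lowered genes with a known transcript shared part of their sequence with other genes, and several belong to the families named above. On chromosome 12, from 87514316 to 88321481 (GRCm38), all 10 tested genes of a cluster that holds relatives of the translation factor Eif1a fell by 4.66 to 7.79, and the median share of non-unique stretches was 84.2% over the 8 with a known transcript. The gene deposited as Gm5662 (ENSMUSG00000072905), which the annotation names Gm2016, retained 2 reads against 1970 in the control libraries. On chromosome 7 all 5 tested Zscan4 genes formed a run, and Dub3, Dub1a, and Dub1 formed a second. On chromosome 13, from 119912237 to 120318076, 6 of 7 tested genes around Tcstv3 and BC147527 fell, and AC239678.1 (-1.90) did not pass, with control libraries that ran from 0.27 to 4.73. In the Prame-like cluster of chromosome 4, 5 of 7 genes fell, while Pramef17 (0.95, SE 0.67) and Gm13128 (1.83, SE 0.81) differed in the opposite direction and did not pass.  On chromosome 1, Gm5698, Gm5699, and AC121888.1 fell by 4.73 to 5.76.

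The other 3 runs held unrelated genes with milder decreases, and the median share of non-unique stretches was 0 in each. On chromosome 13, from 112598333 to 113379711, Ddx4 (-1.19), Ccno (-1.52), a cyclin-like protein of multiciliated cells, and BC067074 (-1.64) fell, and 5 tested genes between them did not (-0.15 to 0.33). On chromosome 11, 3 of 15 tested genes fell: the integrin Itgb4 (-1.26) and the cornified envelope protein gene Evpl (-1.50), both of epithelial anchoring, and Myo15b (-2.02). The 12 genes among them ranged from -0.92 to 0.34. On chromosome 9 Pls1, an actin bundler, fell by 1.29, Pcolce2, a procollagen peptidase enhancer, by 0.51, and the DNA damage kinase Atr by 0.46, and no other gene was tested between them.

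By chromosome, the share of tested genes that were lowered was highest on chromosome 12 (18 of 507, 3.55%) and X (14 of 492, 2.85%). On chromosome 12, 10 of the 18 lay in the Eif1a-like run, and the share outside runs was 1.58%. None of the 14 lowered genes of X lay in a run. On chromosome 13 the share was 2.59%, and 0.926% outside runs. The lowest share was that of chromosome 14, with 3 of 476 genes (0.630%). Raised genes were on 18 chromosomes and made up at most 0.706% of the tested genes, on chromosome 16. No test was made between chromosomes.

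**Figure D5:**
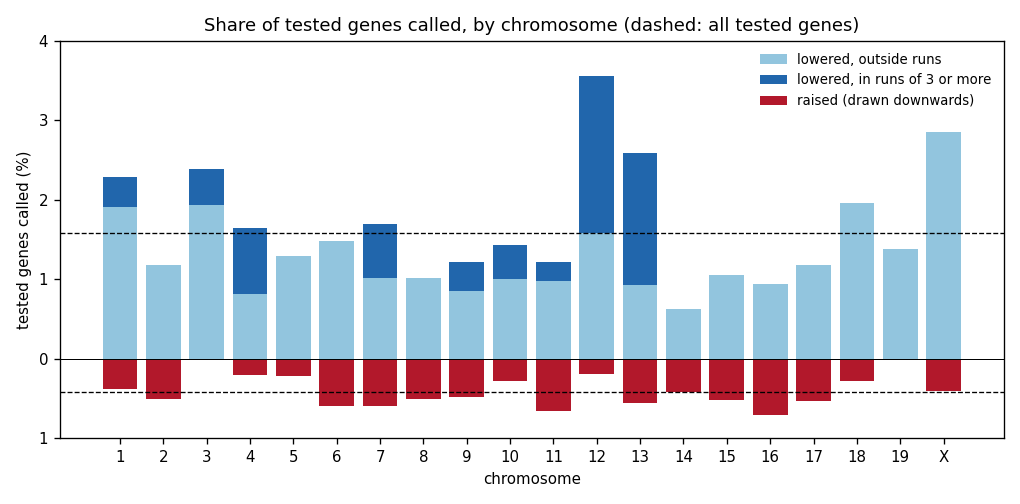
Percentage of the tested genes of each chromosome that were lowered (blue, upwards, with the part in runs in dark blue) or raised (red, drawn downwards); dashed lines mark 1.58% and 0.418% over all tested genes. Chromosome 12 reaches 3.55%, of which 1.58% lies outside runs, whereas the 2.85% of chromosome X lies entirely outside runs.

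The lowered genes of X were of several kinds. Sox3, Tex11, Rhox1, and Dmrtc1c2 were described above. The others were chosen after their values were seen. Gpc3, a heparan sulfate proteoglycan that limits growth, lay at 4.77, 4.95, and 4.99 in control cells and at 4.29, 4.11, and 4.21 after Dppa4 siRNA (difference -0.70, SE 0.12, limma adjusted p = 0.0132). The guanine nucleotide exchange factor Dock11 fell by 1.25, the LIM protein gene Fhl1 by 0.83, the tetraspanin Tspan7 by 0.81, the actin bundler Pls3 by 0.59, and spermine synthase (Sms) by 0.52. Lonrf3, a RING finger gene, fell by 2.24, and AU022751 by 3.07. The median over all 492 tested genes of X was -0.05.

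Compared directly with Dppa2 siRNA, the response to Dppa4 siRNA differed at 3 genes (0.0205% of the tested genes, limma adjusted p below 0.05), and 2 of them are the targets. At an unadjusted p below 0.05 there were 987 genes. Dppa2 was 3.43 higher (SE 0.14, adjusted p = 2.43e-05) after Dppa4 siRNA than after Dppa2 siRNA, and the direct difference of Dppa4 was -0.99 (SE 0.08, adjusted p = 0.00351). The third was 4930486L24Rik (ENSMUSG00000050345, chr13:60842621-60864416). It lay at 0.03, 0.62, and 0.67 in control cells, at -0.94, -0.83, and -0.83 after Dppa4 siRNA, and at -4.05, -3.84, and -4.47 after Dppa2 siRNA. The Dppa4 siRNA libraries were between the other groups and overlapped neither. The direct difference was 3.26 (SE 0.31, limma adjusted p = 0.0106), and the difference from control was -1.30 (SE 0.31, adjusted p = 0.0579) after Dppa4 siRNA and -4.56 (SE 0.31) after Dppa2 siRNA. Without Dppa4 siRNA library B or C, 1 gene was called.

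For other genes the values of both knockdowns, which share the control libraries, stood as follows. Mael differed from control by -1.46 after Dppa4 siRNA and by -1.91 after Dppa2 siRNA, with a direct difference of 0.45 (limma adjusted p = 0.67). Fbxo15 differed by -1.12 and -0.91 and Tmem92 by -6.54 and -5.97. Bhmt rose by 3.51 after Dppa4 siRNA and had a difference of 2.0 after Dppa2 siRNA. On X, Gpc3 had differences of -0.70 and -0.09 (direct difference -0.61, limma adjusted p = 0.59), Tspan7 of -0.81 and -0.28, and Fhl1 of -0.83 and -0.39. Hmox1 had 0.38 and -0.05 (direct difference 0.43, limma adjusted p = 0.53). None of the direct differences of these genes passed.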

How the data were processed

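RNA from E14 ESCs treated with control, Dppa2, or Dppa4 siRNA was sequenced in 9 libraries, of which the 6 control and Dppa4 siRNA libraries are described. The authors trimmed reads with Trim Galore (0.4.5 per the labels) and aligned to GRCm38 by HISAT2 (2.0.5). They quantitated strand-specific reads over mRNAs in SeqMonk, matched the distributions of the libraries, and deposited the result as log2 values of 25965 genes. Matching the distributions fixes the shape of each library, so a shift shared by most genes cannot be seen. The table gives no read numbers; these were inferred from the steps between distinct low values of a library (whole reads up to 300, the slope beyond). They are approximate, and their intervals and floors cover counting error only.

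limma 3.58.1 (R 4.3.3, intensity trend, treatment as the only term) was fitted to all 9 libraries for the 14601 genes that exceeded -2 in 3 or more of them. limma took the place of the authors' DESeq2 because no counts were given. Called genes had a Benjamini-Hochberg adjusted p below 0.05 and passed an intensity difference filter (p below 0.05 under a normal model of the differences in the 1% of tested genes with the closest mean). For genes without reads after Dppa4 siRNA, folds are bounds against 3 reads in each library. Genes with 1 to 3 such reads in total are given as a percentage of their control reads, with exact 95% limits.

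Position, identifiers, and shared 50-base stretches came from the GENCODE annotation of GRCm38, and promoters from RefSeq (GRCm38.p6). Named genes were the siRNA targets, the 30 largest decreases and 30 largest increases among called genes whose groups did not overlap, called members of each list (or, with fewer than 2 called, those with the largest difference or highest level), members of runs, and genes called between the knockdowns. Other named genes, among them uncalled list members, were chosen after their values were seen. Members and lists were chosen with earlier results of these data known. Alternatives covered the libraries fitted, filters, calls, single libraries left out, a replicate block, and the gap of runs. The fit was tested on simulated data. Python 3.11.15 (pandas 2.3.3, numpy 2.4.6, matplotlib 3.10.9, scipy 1.17.1) was used for tables and plots.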

Additional observations from a re-analysis of the deposited data

Results flagged for a closer look

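The genes listed here differed between the 2 knockdowns in a direct limma test. 4930486L24Rik differed between Dppa4 and Dppa2 siRNA by 3.26 (SE 0.31, limma adjusted p = 0.0106), being higher in each Dppa4 siRNA library than in any Dppa2 siRNA library. Dppa2 differed by 3.43 and Dppa4 by -0.99, as the targets of the siRNAs. Both knockdowns share their control libraries, but this direct difference does not use them except for the pooled spread.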

How the results depend on the processing

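No called gene changed its direction under any alternative fit that tested it. The signs of genes that were not called were not followed. With only the control and Dppa4 siRNA libraries 23 genes were raised, and by limma alone 160. Where the p of the intensity filter was adjusted as well, 63 genes were lowered and 5 raised. With a filter on values of log2 above 0, 147 genes were lowered, of them 15 of the 2-cell list. Without a filter 5 genes differed between the knockdowns. With neighbors within 200 kb, 33 genes lay in runs. Leaving out single libraries gave 147 to 234 lowered and 9 to 61 raised genes, 29 to 32 lowered genes of the 2-cell list, 9 to 19 of the germline lists, and 3 to 8 of the neural list, and 1 to 3 genes between the knockdowns. Counts of the 2-cell, germline, and neural lists under these alternatives were chosen after seeing the data.

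Replicate letters did not pair the libraries: deviations of same-lettered control and Dppa4 siRNA libraries correlated at -0.48, -0.03, and -0.39 for A, B, and C. With the letter as a replicate block 155 genes were lowered and 21 raised, of them 12 lowered in the germline lists and 3 in the neural list, and 1 gene differed between the knockdowns. The deposited values hold no counts, so a count model was not run, and the precision of genes with few reads is limited by depth.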

Other observations

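In 3 genes with large mean differences that were not called, a single control library stood apart. The values of Gm10116 were 7.22, 6.59, and -4.49 in control A, B, and C and 5.14, 7.78, and 6.74 after Dppa4 siRNA. AC130279.1 lay at 3.43, 4.36, and -4.49 in the control libraries and at 3.73, 4.56, and 4.53 after Dppa4 siRNA, and Gm5459 at 5.69, 5.5, and -1.31 and at 5.46, 5.20, and 5.85. In each of them the value of control C was far below both other control libraries, which lay near the Dppa4 siRNA values. These genes were chosen after their values were seen.

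Genes of the Hox clusters were detected at low level, with 14 of 39 tested, no called gene (beside 2% of all tested genes), and a median difference of 0.42. At an unadjusted p below 0.05 there were 3. Genes of primed pluripotency and gastrulation had no called gene of 31 and a median of -0.01, with 8 at an unadjusted p below 0.05. Among 34 genes of glycolysis and lipid metabolism 2 rose (5.88%, beside 0.418% of all tested genes), the lactate transporter Slc16a3 (0.50) and the muscle phosphofructokinase Pfkm (0.51). Their median was 0.15, 13 had an unadjusted p below 0.05, and the mean log2 level was 7.13 to 7.34 in control cells and 7.35 to 7.45 after Dppa4 siRNA.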
